A study of Homo sapiens with 4 samples.

Results

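TXNIP, the 4 other alpha-arrestin genes ARRDC1 to ARRDC4 and the MLX, MLXIP and MLXIPL transcription factor genes were followed in starved renal carcinoma cells. The 8 genes were taken by symbol from the 57820 rows of a gene table, and each symbol matched 1 row. The cells were 786-0, an established human renal carcinoma line, and carried a hairpin against GLUD1 (shGLUD1, 2 libraries) or a non-targeting hairpin (shNT, 2 libraries). All 4 libraries came from cells maintained in DMEM with serum and then starved of amino acids for 12 h, so fed cells are in neither group. GLUD1 encodes the mitochondrial glutamate dehydrogenase. How many hairpins or clones each group represents is not given in the sources used here, and nothing in the labels says that replicates came from separate cultures. P-values below therefore speak only for the variation among the 4 libraries, part of which may be technical. The genes were chosen with the shGLUD1 against shNT contrast in view, so their own values are a description and support no test; how many of them the fit over all genes called is counted once below, beside the share of all genes, with nothing read from it.

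Alpha-arrestins are adaptor proteins that bring ubiquitin ligases of the NEDD4 family to membrane proteins, which are then internalised. TXNIP, the member best known in metabolism, also binds reduced thioredoxin and lowers glucose uptake by promoting internalisation of glucose transporters. TXNIP and ARRDC4 are the classical targets of MondoA, encoded by MLXIP, which binds DNA as a dimer with MLX when glucose 6-phosphate accumulates in the cell; ChREBP, encoded by MLXIPL, is the related factor best known from liver. The dimers bind carbohydrate response elements, pairs of E-box-like half-sites.

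The promoter windows of TXNIP, ARRDC4 and MLX are shown because they hold the E-box-type matches found among the 8 genes. Sequences are the 250 bases before the RefSeq start, 5′ to 3′ on the gene's strand, from GRCh38.p14. Capitals mark CACGTG, the perfect E-box, or CACGAG, a variant of it.
TXNIP, chr1:145996580-145996829, minus strand: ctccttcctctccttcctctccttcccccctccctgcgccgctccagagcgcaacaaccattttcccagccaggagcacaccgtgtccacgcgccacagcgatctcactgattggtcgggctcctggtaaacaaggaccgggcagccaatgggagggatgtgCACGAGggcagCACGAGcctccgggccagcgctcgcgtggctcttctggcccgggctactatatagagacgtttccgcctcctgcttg
ARRDC4, chr15:97960453-97960702, plus strand: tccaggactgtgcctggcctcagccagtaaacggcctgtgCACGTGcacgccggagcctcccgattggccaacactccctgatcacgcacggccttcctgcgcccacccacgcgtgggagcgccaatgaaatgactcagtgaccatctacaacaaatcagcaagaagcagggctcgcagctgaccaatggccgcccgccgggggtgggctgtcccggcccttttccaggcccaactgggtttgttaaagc
MLX, chr17:42566850-42567099, plus strand: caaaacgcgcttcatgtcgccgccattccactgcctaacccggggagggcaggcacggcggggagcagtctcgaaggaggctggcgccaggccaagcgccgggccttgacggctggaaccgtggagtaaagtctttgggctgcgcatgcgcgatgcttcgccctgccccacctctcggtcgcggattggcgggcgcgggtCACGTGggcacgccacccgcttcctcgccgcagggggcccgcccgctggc
In the TXNIP window the 2 half-sites form the element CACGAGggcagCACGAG, which covers positions 88 to 72 before the start and fits the searched pattern of CACGNG, any 5 bases and CACGNG again. That pattern, searched on both strands, was present in 16 of 35116 RefSeq promoter windows of the same length (0.0456%). Its half-sites overlap the CACGAG matches, which are the same letters. ARRDC4 held CACGTG at positions 210 to 205 before its start, and MLX held it at positions 50 to 45; CACGTG was present in 6.34% of all windows and CACGAG in 5.58%. CCAAT, searched on both strands, was found in 7 of the 11 windows of the 8 genes, 3 times in that of ARRDC4, and in 32% of all windows. A match is a string of letters and was not tested for binding, and a window without one says nothing of the factor.

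**Figure D1:**
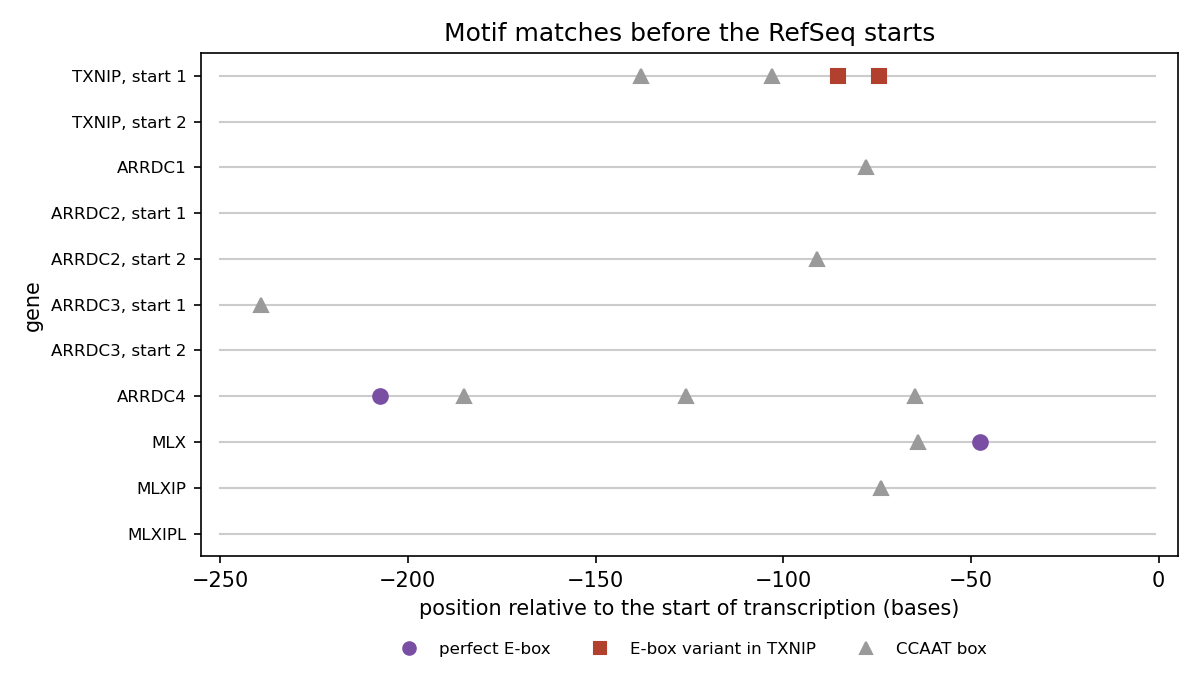
Positions of E-box-type and CCAAT matches in the 250 bases before each RefSeq start of the 8 genes; the x axis is distance from the start in bases, each grey line is 1 window, and TXNIP, ARRDC2 and ARRDC3 have 2 starts each. TXNIP start 1 carries the pair of variant half-sites, ARRDC4 and MLX carry 1 perfect E-box each, and the other windows hold CCAAT or none of these.

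TXNIP, listed under ENSG00000117289 and annotated as protein-coding on GRCh38 chromosome 1 (145992435 to 145996600, minus strand, GENCODE 29, matched by symbol), stood far apart between the groups. It was at 21.07 and 27.86 TPM in the shGLUD1 libraries, against 0.57 and 0.96 TPM in the shNT libraries. TPM are transcripts per 1000000, scaled within each library and per length, so levels of different genes can be compared. Both shGLUD1 libraries were high and both shNT libraries were low, and the lower shGLUD1 library was 21.9 times the higher shNT library. The means were 24.5 ± 4.8 TPM in shGLUD1 and 0.765 ± 0.276 TPM in shNT (SD, n = 2 each), a ratio of 31.98. The size of that ratio rests on shNT values below 1 TPM, whose counting error is unknown. On log2(TPM + 1), the scale of every fold change below, the difference was 3.85 (SE 0.24). It was the third highest of the 12524 genes that averaged 1 TPM or more. TXNIP passed that filter only through its shGLUD1 values and was chosen with this contrast in view, so the rank is a description alone. In bulk RNA, fewer cells that express a gene and less of its RNA per cell cannot be told apart.

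The scale of the whole comparison bears on every gene. The median gene was itself 0.63 higher in shGLUD1 on log2(TPM + 1). Median-ratio rescaling, which divides each library by the median ratio of its genes to their mean over the libraries, brought that median to -0.01, and values after it are called rescaled. Rescaled TXNIP was 17.2 and 19.6 in shGLUD1, against 0.745 and 1.24 in shNT, a log2 fold change of 3.29 (SE 0.19). The direction for TXNIP was thus the same on both scales, and the groups overlapped on neither.

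Library-wide values were read once. Genes above 0 numbered 20137 and 20489 in shGLUD1 and 19724 and 19958 in shNT; TPM keep no read totals, so the depth is unknown. GLUD1, the targeted gene, had 13.52 and 19.82 TPM in the shGLUD1-labelled libraries and 18.09 and 17.43 TPM in shNT (limma adjusted p = 0.631, rescaled log2 fold change -0.84, adjusted p = 0.00201). Rescaled, GLUD1 was 11.02 and 13.91 in shGLUD1 and 23.63 and 22.43 in shNT. Because 1 labelled knockdown library was above both controls on TPM and below both only when rescaled, shGLUD1 below refers to the label alone, and every direction rests on it. Of 8 markers read for the line, 5 (PAX8, EPAS1, CA9, KRT8 and VIM) were above 1 TPM in every library, KRT18 was between 0.66 and 1.87 TPM, and PAX2 and CDH6 were listed at 0 to 0.12 TPM. Line markers also shifted between the groups. VIM was at 2901.83 and 3755.83 TPM in shGLUD1 and 930.9 and 890.77 TPM in shNT, CA9 at 64.34 and 72.43 TPM in shGLUD1 and 22.13 and 23.99 TPM in shNT, and EPAS1 at 21.25 and 26.12 TPM in shGLUD1 and 8.86 and 8.96 TPM in shNT. PAX8 was lower in shGLUD1, at 5.18 and 7.48 TPM, against 8.07 and 8.75 TPM in shNT, and so was KRT18. Leukocyte PTPRC and CD3E and endothelial CDH5 and VWF reached at most 0.11 TPM. CD68, also a lysosomal protein gene of other cells, was at 208.73 and 241.26 TPM in shGLUD1 and 158.94 and 145.85 TPM in shNT, and leukocyte CD14 was at 0.04 and 0.46 TPM in shGLUD1 and 1.11 and 1.24 TPM in shNT. The 3 fibroblast markers summed to 53.3 and 57.95 TPM in shGLUD1 and 22.9 and 18.9 TPM in shNT; the part of these shifts in the results was not tested.

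**Figure D2:**
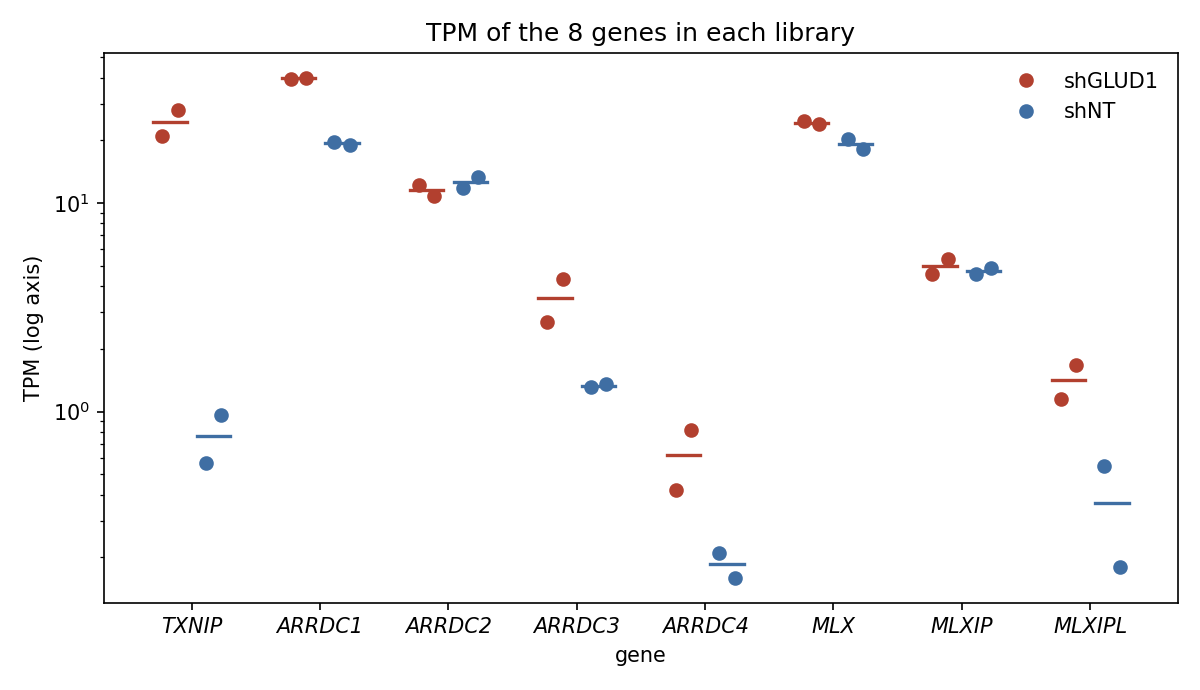
TPM of the 8 genes in each library on a logarithmic axis; points are single libraries, horizontal lines are group means, with shGLUD1 to the left of shNT for each gene. TXNIP lies at 21.07 and 27.86 TPM in shGLUD1 and below 1 TPM in shNT, whereas ARRDC2 and MLXIP overlap between the groups.

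Among the other alpha-arrestins, ARRDC1, ARRDC3 and ARRDC4 were higher in shGLUD1 on TPM, with log2 fold changes of 0.44 to 1.00 beside 0.63 for the median gene, and ARRDC2 was not. ARRDC1, which recruits the budding factor TSG101 and drives release of plasma membrane vesicles, was at 39.49 and 39.79 TPM in shGLUD1, against 19.67 and 18.97 TPM in shNT. The groups did not overlap, and each pair of replicates lay close together. The log2 fold change was 1.00 (SE 0.14) on TPM and 0.25 (SE 0.13) rescaled. ARRDC1 meets an antisense gene, C9orf37 in the table and ARRDC1-AS1 in GENCODE 29, over 29 bases at its end. C9orf37 was at 43.85 and 41.22 TPM in shGLUD1 and 27.56 and 28.64 TPM in shNT. Whether counting used strand is not given in the sources used here, so reads of the overlap cannot be assigned. ARRDC1 also shares 9617 bases with AL590627.2, a processed transcript on the same strand that was not analysed here, so its values are uncertain over most of the gene.

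ARRDC2 was at 12.2 and 10.86 TPM in shGLUD1, against 11.85 and 13.4 TPM in shNT. Its groups overlapped on TPM, with a log2 fold change of -0.12 (SE 0.18). Rescaled, it was 9.95 and 7.62 in shGLUD1, against 15.5 and 17.2 in shNT, which did not overlap (log2 fold change -0.84, SE 0.17). ARRDC2 shares 442 bases with AC020904.3 on the other strand, which was not analysed here.

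ARRDC3, which directs beta-2 adrenergic receptor and integrin beta-4 to degradation, was at 2.68 and 4.34 TPM in shGLUD1, against 1.31 and 1.35 TPM in shNT. The groups did not overlap, and the spread lay almost wholly within shGLUD1. Its log2 fold change was 0.93 (SE 0.26) on TPM and 0.40 (SE 0.21) rescaled. ARRDC3 lies on chromosome 5 (91368724 to 91383359) and shares 3011 bases with ARRDC3-AS1 on the other strand, which was not analysed here.

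ARRDC4, the alpha-arrestin closest to TXNIP in its regulation by glucose, was low in every library, at 0.42 and 0.82 TPM in shGLUD1, against 0.21 and 0.16 TPM in shNT. Both shGLUD1 libraries were above both shNT libraries, and the lower of them was 2-fold the higher shNT value. The ratio of means was 3.35, against 31.98 for TXNIP. With a mean below 1 TPM it was not in the fit, and its difference in mean log2(TPM + 1) was 0.44 on TPM and 0.23 rescaled. That scale understates the change of so low a gene: with 0.1 TPM added in place of 1, the difference was 1.28 for ARRDC4 and 4.85 for TXNIP.

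The makeup of the alpha-arrestin transcripts differed between the groups. The 5 genes summed to 75.86 and 83.67 TPM in shGLUD1, against 33.61 and 34.84 TPM in shNT. The median gene was itself 0.63 higher in shGLUD1 on log2(TPM + 1), and the sum was not rescaled, so its rise is partly one of scale. Rescaled, ARRDC2 was lower in shGLUD1 and the others were higher, ARRDC1 at 32.2 and 27.9 against 25.7 and 24.4 in shNT. TXNIP gave 27.8% and 33.3% of the TPM sum in shGLUD1, against 1.696% and 2.76% in shNT. ARRDC1 gave 52.1% and 47.6% in shGLUD1 and 58.5% and 54.4% in shNT, and ARRDC2 gave 16.1% and 12.98% in shGLUD1 and 35.3% and 38.5% in shNT. These shares are ratios within a library, which no scaling between libraries can move. The ratio of TXNIP to ARRDC4 was 50.2 and 33.98 in shGLUD1, against 2.71 and 6 in shNT, and that of TXNIP to ARRDC3 was 7.86 and 6.42 in shGLUD1, against 0.435 and 0.711 in shNT. TXNIP thus stood higher relative to each of the other 4 arrestin transcripts in both shGLUD1 libraries.

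**Figure D3:**
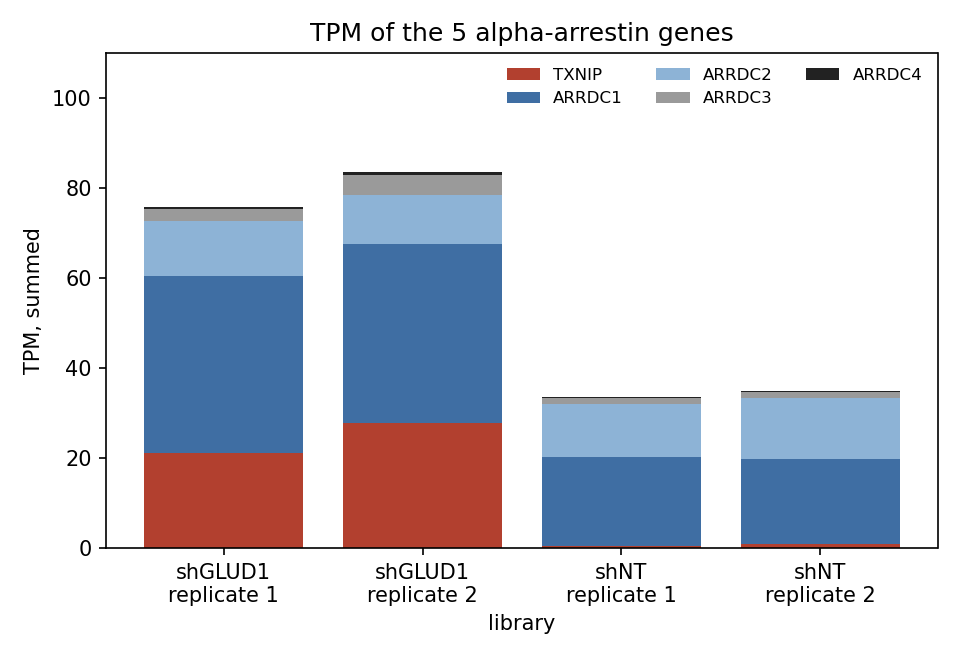
Stacked TPM of TXNIP and ARRDC1 to ARRDC4 in each of the 4 libraries; bar height is the sum in TPM. The sum is 75.86 and 83.67 TPM in shGLUD1 and 33.61 and 34.84 TPM in shNT. On TPM, which is not rescaled here, the TXNIP segment makes most of the difference together with ARRDC1.

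The 3 MLX factor genes differed in level and in how they changed with the scale. MLX, the shared dimer partner, was at 24.68 and 23.97 TPM in shGLUD1, against 20.18 and 18.12 TPM in shNT. Both shGLUD1 libraries were higher on TPM, with a log2 fold change of 0.33 (SE 0.15), but both were lower rescaled, at 20.1 and 16.8 in shGLUD1 and 26.4 and 23.3 in shNT (-0.41, SE 0.14). MLX shares 925 bases with PSMC3IP on the other strand, which was at 7.2 and 11.91 TPM in shGLUD1 and 7.08 and 6.3 TPM in shNT.

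MLXIP, the MondoA gene, was at 4.58 and 5.41 TPM in shGLUD1, against 4.58 and 4.86 TPM in shNT. The groups overlapped on TPM, where the log2 fold change was 0.06 (SE 0.22), and its sign turned to -0.04 without shGLUD1 replicate 2. Rescaled, MLXIP was 3.73 and 3.80 in shGLUD1, against 5.98 and 6.25 in shNT (-0.58, SE 0.17). Higher TXNIP thus went with a MondoA transcript whose groups overlapped on TPM and were lower in shGLUD1 when rescaled.

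MLXIPL, the ChREBP gene, was at 1.15 and 1.68 TPM in shGLUD1, against 0.55 and 0.18 TPM in shNT. The groups did not overlap, and the difference in mean log2(TPM + 1) was 0.83 on TPM and 0.50 rescaled, outside the fit because its mean was below 1 TPM. MLXIPL shares 2241 bases with AC005089.1 on the same strand, which was not analysed here. MLXIP stood at 3.98 and 3.22 times MLXIPL in shGLUD1, against 8.33 and 27.0 times in shNT. MLX stood at 5.39 and 4.43 times MLXIP in shGLUD1 and at 4.41 and 3.73 times in shNT, ranges that nearly touch.

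In shGLUD1 the order of mean levels was ARRDC1 (39.6 TPM), TXNIP (24.5), MLX (24.3), ARRDC2 (11.5), MLXIP (4.995), ARRDC3 (3.51), MLXIPL (1.415) and ARRDC4 (0.62), in TPM throughout. Of neighbours in that order, the values of TXNIP and MLX overlapped, and no other pair did. In shNT it was ARRDC1 (19.3 TPM), MLX (19.15), ARRDC2 (12.6), MLXIP (4.72), ARRDC3 (1.33), TXNIP (0.765), MLXIPL (0.365) and ARRDC4 (0.185), where ARRDC1 overlapped MLX and MLXIPL overlapped ARRDC4. By its mean, TXNIP thus ranked above MLX, ARRDC2, MLXIP and ARRDC3 in shGLUD1 and below all of them in shNT. Among genes above 0 in the same library, 79.4% and 81.7% were lower than TXNIP in shGLUD1, against 34.6% and 42.3% in shNT.

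Of the 8 genes, 6 averaged 1 TPM or more and passed the filter, TXNIP only through its shGLUD1 values. In the limma fit 3 of these (TXNIP, ARRDC1 and ARRDC3) were called higher and none lower at an adjusted p under 0.05, beside 56.7% higher and 7.77% lower among all 12524 genes tested; 0 were lower at an unadjusted p under 0.05. Their median log2 fold change was 0.63, as was that of all genes. Rescaled, 1 (TXNIP) was called higher and 3 (ARRDC2, MLX and MLXIP) lower, beside 22.7% and 28.4% of all genes. Groups did not overlap for 6 of the 8 on TPM, all with shGLUD1 above, beside 69.9% of genes tested with shGLUD1 above and 13.5% with it below. Rescaled, 5 had shGLUD1 above and 3 below, beside 38.4% and 39.8%. ARRDC4 and MLXIPL, counted among the 6 and the 5, were below the filter, so these shares of genes tested do not cover them. Since the genes were chosen on this contrast, nothing is read from these counts.

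**Figure D4:**
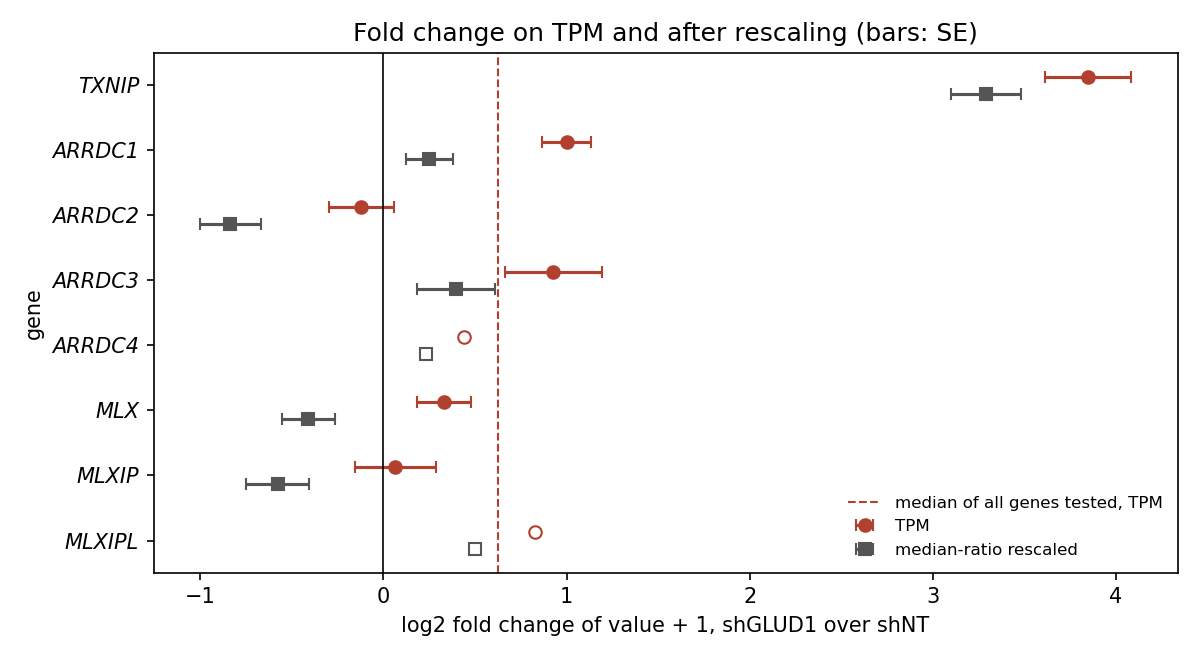
Log2 fold change of shGLUD1 over shNT for each of the 8 genes on TPM (red circles) and after median-ratio rescaling (grey squares), on value + 1; bars are SE from the limma fit, and open symbols are genes below the filter, with no SE. TXNIP lies at 3.85 and 3.29, while ARRDC1, ARRDC3, ARRDC4 and MLXIPL lie between 0.23 and 1.00 on either scale.

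Genes whose pattern over the 4 libraries was most like that of TXNIP were taken by the distance between centred log2(TPM + 1) profiles, among 7198 protein-coding genes that averaged 5 TPM or more. The nearest was EGFR, the epidermal growth factor receptor (distance 0.519), at 350.13 and 482.22 TPM in shGLUD1 and 24.7 and 20.18 TPM in shNT. It was followed by IL36B, an interleukin-1 family cytokine (0.558), NUSAP1, a spindle protein (0.742), ANTXR2, an anthrax toxin receptor (0.787), and CKAP5, a microtubule polymerase (0.823). The log2 fold changes of these 5 were 4.14, 3.34, 3.12, 3.08 and 3.07 in that order, against 3.85 for TXNIP. TXNIP was below 1 TPM in shNT, so the added 1 TPM shrinks its change and part of this likeness depends on it. With 0.1 TPM added, the 5 were at 4.20, 3.44, 3.35, 3.65 and 3.52, against 4.85 for TXNIP. Distances were not taken on that scale. The distance is not scaled for the size of a change, so with 2 against 2 libraries it mainly picks genes with a similar group difference. For ARRDC4 the nearest on this scale were MUM1, PARP6, MKKS, NFE2L1 and PARPBP, at distances of 0.0465 to 0.062. ARRDC4 was below 1 TPM in every library, where the added 1 TPM flattens its profile, so they match only that flattened profile. With 0.1 TPM added in place of 1, ARRDC4 was at 1.28 and these 5 genes were at 0.42 to 0.55. On log2(TPM + 1) their fold changes of 0.41 to 0.48 became -0.34 to -0.19 rescaled, whereas that of ARRDC4 stayed above 0. Because of the flattening, nothing is read from that contrast.

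Other genes whose promoter window fits the searched pattern of paired CACGNG half-sites were read after their values were seen. Their bases were not compared with the TXNIP element beyond that pattern. Of the 16 genes with a match, 11 were tested. Besides TXNIP, 5 of the 10 others were called higher and 2 lower on TPM, beside 56.7% and 7.77% of all genes. Rescaled, 3 were higher and 3 lower, beside 22.7% and 28.4% of all genes. Nothing is called particular to these few genes, whose TPM fold changes ran from -1.10 to 1.41 on the log2 scale. P4HA1, a collagen prolyl hydroxylase subunit, was at 11.83 and 19.39 TPM in shGLUD1 and 4.55 and 5.67 TPM in shNT (1.41, rescaled 0.72). GFPT1, the entry enzyme of the hexosamine pathway, was at 8.02 and 9.49 TPM in shGLUD1 and 2.8 and 3.02 TPM in shNT (1.32, rescaled 0.67). MTHFS, a folate enzyme, was lower, at 10.71 and 8.38 TPM in shGLUD1 and 21.19 and 21.65 TPM in shNT (-1.10). Their limma adjusted p were 0.000556, 0.000463 and 0.000373 in that order. The highest of the 10 changes on TPM was 1.41, against 3.85 for TXNIP. Rescaled, the highest was that of TIGD1, at 1.00, against 3.29 for TXNIP. TIGD1 was low, at 1.51 and 2.31 TPM in shGLUD1 and 0.13 and 0.19 TPM in shNT.

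In the limma fit 15 of 22 listed targets of MondoA and ChREBP were tested, with 10 up and 1 down past the threshold on TPM, beside 56.7% and 7.77% of all genes. The median log2 fold change of the list was 0.81, against 0.63 for all genes. Rescaled, 3 were higher and 3 lower, with a median of 0.23, beside 22.7% and 28.4% of all genes. MID1IP1, a regulator of fatty acid synthesis, was at 51.97 and 69.62 TPM in shGLUD1 and 24.15 and 22.17 TPM in shNT (log2 fold change 1.34, SE 0.16, limma adjusted p = 5.2e-05). ACLY, ATP citrate lyase, rose by 1.25 (adjusted p = 0.000127), and KLF10, a glucose-responsive zinc finger factor, by 1.14 (adjusted p = 0.00133); these 3 were the ones called higher rescaled, at 0.58, 0.51 and 0.48, but KLF10 did not pass with quantile normalization (0.37, limma adjusted p = 0.104). The 1 that fell on TPM was TKT, named after its values were seen (-0.29, limma adjusted p = 0.0124). Rescaled, the 3 called lower were TKT (-1.06), GCKR (-1.04) and ACACA (-0.69), the last 2 also named after their values were seen. PKLR, THRSP and G6PC, liver targets of ChREBP, were listed at 0 in all 4 libraries.

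**Figure D5:**
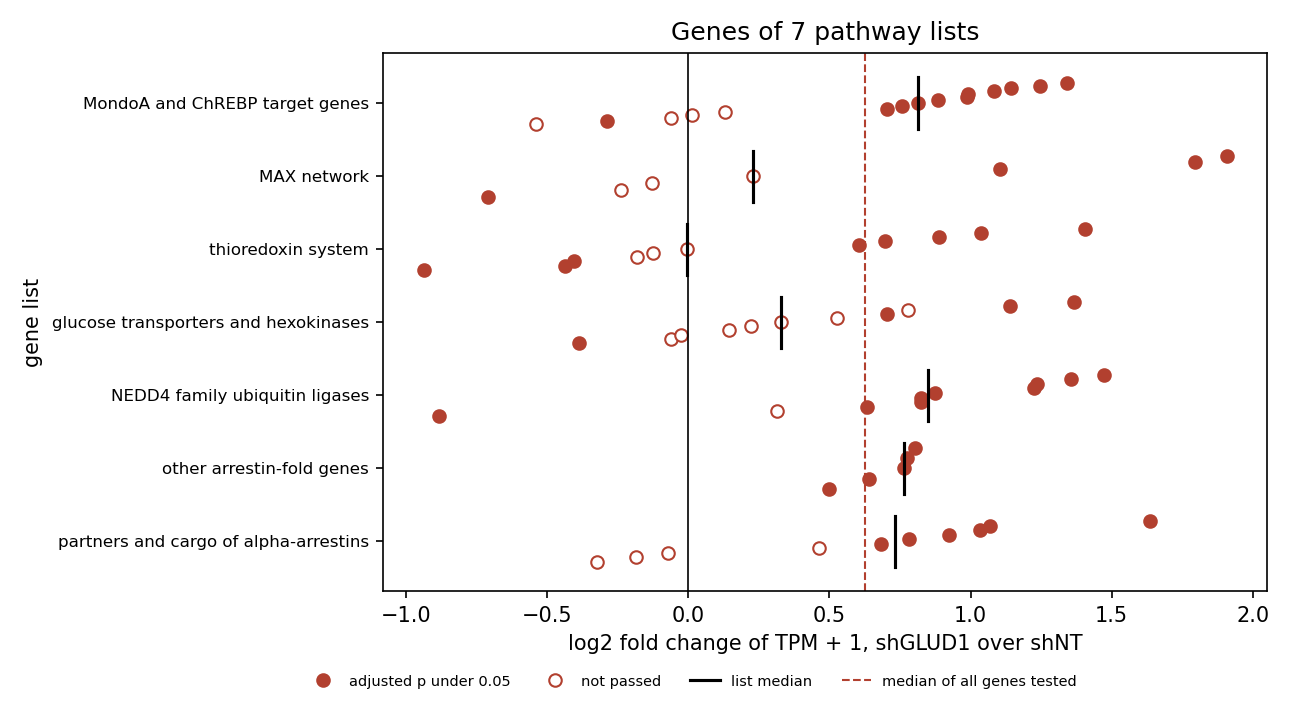
Log2 fold change of TPM + 1, shGLUD1 over shNT, for each tested gene of 7 lists; filled circles passed an adjusted p under 0.05, open circles did not, black ticks are list medians and the dashed line is the median of all genes tested (0.63). The medians run from about 0 for the thioredoxin list to 0.85 for the NEDD4 family, and no listed gene reaches 2 on this scale.

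The thioredoxin system, which reduces protein disulfides and whose thioredoxin TXNIP binds, was mixed. Of 11 genes tested 5 rose and 3 fell (list median -0.0031 on TPM, against 0.63 for all genes), beside 56.7% and 7.77% of all genes. After rescaling 1 was higher and 6 were lower (median -0.74), beside 22.7% and 28.4%. TXN, the cytosolic thioredoxin bound by TXNIP, was named after its values were seen; it was at 860.19 and 869.98 TPM in shGLUD1 and 1142.58 and 1198.63 TPM in shNT and fell (log2 fold change -0.44, limma adjusted p = 0.0011). Thioredoxin transcripts stood at 40.8 and 31.2 times those of TXNIP in shGLUD1, against 2005 and 1249 times in shNT. TXNRD2, the mitochondrial thioredoxin reductase, fell (-0.94, adjusted p = 9.6e-05). PRDX3, the mitochondrial peroxiredoxin, rose by 1.41 (adjusted p = 3.3e-05), and TXNRD1, the cytosolic reductase, by 1.04 (adjusted p = 0.000601), which did not pass when rescaled (0.28).

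Among 11 tested genes of glucose transporters, sugar kinases and the glucose 6-phosphatase G6PC3, 3 rose and 1 fell (list median 0.33 on TPM), beside 56.7% and 7.77% of all genes. After rescaling 2 were higher and 4 were lower, G6PC3 among them (median -0.22), beside 22.7% and 28.4%. HK1, the widely expressed hexokinase that makes glucose 6-phosphate, was at 115.28 and 146.11 TPM in shGLUD1 and 52.78 and 46.81 TPM in shNT (log2 fold change 1.37, limma adjusted p = 2.1e-05, rescaled 0.60). ADPGK, an ADP-dependent glucokinase, rose by 1.14 (adjusted p = 0.000181, rescaled 0.39). HK2, the inducible hexokinase, rose by 0.70 (adjusted p = 0.0108), but its rescaled value was 0.01 and its call was lost without shGLUD1 replicate 2 (adjusted p = 0.0554) and without the first or the other shNT library (0.0834 and 0.0687). The list held 2 calls without either shNT library. SLC2A1, the glucose transporter GLUT1 that TXNIP helps to internalise, named after its values were seen, was at 36.54 and 41.07 TPM in shGLUD1 and 53.44 and 48.49 TPM in shNT and was the 1 that fell (-0.39, adjusted p = 0.022). TXNIP stood at 0.577 and 0.678 of the SLC2A1 level in shGLUD1, against 0.0107 and 0.0198 in shNT.

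The ubiquitin ligases of the NEDD4 family and their 2 NDFIP adaptors, which alpha-arrestins bring to their cargo, had 8 of 10 tested genes higher and 1 lower on TPM (median 0.85, against 0.63 for all genes), beside 56.7% and 7.77% of all genes. Rescaled, 3 were higher and 1 lower (median 0.30), beside 22.7% and 28.4% of all genes. WWP1 was at 3.67 and 6.39 TPM in shGLUD1 and 0.85 and 1.42 TPM in shNT (log2 fold change 1.47, limma adjusted p = 0.00122). NEDD4L, which acts on the epithelial sodium channel, rose by 1.36 (adjusted p = 3.6e-05) and SMURF2, a ligase of TGF-beta signalling, by 1.23 (adjusted p = 0.00194). These were also the 3 called higher rescaled, at 0.94, 0.61 and 0.73, but SMURF2 did not pass with quantile normalization (0.57, limma adjusted p = 0.0508). SMURF2 was low, at 2.94 and 4.47 TPM in shGLUD1 and 0.91 and 1.04 TPM in shNT. Its shNT mean lay below the 1 TPM filter, and with 0.1 TPM added its change was 1.80. The 1 that fell was HECW1, named after its values were seen (-0.88, adjusted p = 0.00692). Without shNT replicate 1 the list had 5 calls.

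All 5 tested genes of the other arrestin-fold list rose on TPM (median 0.76), where 56.7% of all genes did. None was called rescaled (median 0.06), beside 22.7% of all genes higher and 28.4% lower, and 0 passed limma's test rescaled at an unadjusted p under 0.05. VPS26B and VPS26A, retromer subunits, rose by 0.80 and 0.76, and ARRB1, a beta-arrestin, by 0.78 (limma adjusted p = 0.00434, 0.00808 and 0.017). With no filter on low values ARRB1 and VPS26A did not pass (adjusted p = 0.0694 and 0.0561). The list had 1 call without shGLUD1 replicate 2 and 3 without either shNT library. ARRDC5, the remaining alpha-arrestin, was listed at 0.04 and 0 TPM in shGLUD1 and at 0 in shNT.

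Of 10 tested partners and cargo of alpha-arrestins, 6 rose and none fell on TPM in the limma fit (median 0.73; 0 lower at an unadjusted p under 0.05), near the 56.7% and 7.77% of all genes. Rescaled, 1 was higher and 3 lower (median 0.10), beside 22.7% and 28.4%. The 3 lower were HGS (-0.96), DDIT4 (-0.84) and ITGB4 (-0.82), named after their values were seen, and none of them passed on TPM. YAP1, the Hippo pathway effector bound by ARRDC3, was at 6.49 and 9.65 TPM in shGLUD1 and 1.98 and 1.77 TPM in shNT and was the 1 called higher rescaled (log2 fold change 1.64, limma adjusted p = 0.000266, rescaled 1.03). F2R, the thrombin receptor PAR1, rose by 1.07 (adjusted p = 0.0043) and TSG101 by 1.03 (adjusted p = 5.3e-05); rescaled, at 0.43 and 0.27, neither passed, and F2R did not pass with no filter on low values (adjusted p = 0.0566).

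The MAX network, to which MLX is joined through shared MXD partners, had 3 of 7 tested genes higher and 1 lower on TPM (median 0.23), where 56.7% of all genes were higher and 7.77% lower. Rescaled, 3 were higher and 4 lower (median -0.52), where the shares of all genes were 22.7% and 28.4%. MNT, a repressor that pairs with MAX and MLX, was at 7.71 and 7.1 TPM in shGLUD1 and 1.13 and 1.35 TPM in shNT (log2 fold change 1.91, limma adjusted p = 6.8e-05, rescaled 1.34). MXD3 rose by 1.80 (adjusted p = 6.7e-06, rescaled 1.05) and MXI1 by 1.11 (adjusted p = 0.00154, rescaled 0.48), both repressors of MYC target genes; MXI1 did not pass with quantile normalization (0.36, adjusted p = 0.113). The 1 that fell on TPM was MXD1, named after its values were seen (-0.71, limma adjusted p = 0.0396, rescaled -1.27). MXD4, also named after its values were seen, was at -0.24 on TPM, where it did not pass, and at -0.97 rescaled. The other genes called lower rescaled were MYC (-0.83) and MAX (-0.52). MAX itself was at 23.71 and 33.99 TPM in shGLUD1 and 23.47 and 24.75 TPM in shNT, and did not pass on TPM. MLX stood at 1.04 and 0.705 times MAX in shGLUD1, against 0.860 and 0.732 times in shNT, and these ratios overlapped.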

How the data were processed

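Per the labels' protocols, the TruSeq V2 kit was used on 1 µg of total RNA; libraries were grouped by sample title. The authors deposited 1 table of TPM for 57820 genes in the 4 libraries, each column scaled to 1000000. Bowtie 0.12.2 and 2 builds, hg38 and mm8, appear without a role in the submitters' processing notes; which quantifier, annotation and strand setting were used is not given in the sources used here. Since TPM keep no depth, no counting interval can be given, and a gene listed at 0 has no detection limit.

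Values were analysed as log2(TPM + 1) for the 12524 genes that averaged 1 TPM or more, with limma 3.58.1 in R 4.3.3 (variance trend, group as the only term), two-sided, Benjamini-Hochberg adjusted over all genes, threshold 0.05. The fit was tested on simulated data with the same spread for every gene, as many genes raised as lowered and no shift of scale between the groups. That test therefore says nothing of calls that move with the scale. Python 3.11.15, pandas 2.3.3, numpy 2.4.6 and matplotlib 3.10.9 made tables, motif searches and figures. Coordinates came from GENCODE 29 on GRCh38, 7 genes by identifier and TXNIP by symbol; promoters came from RefSeq on GRCh38.p14, for all 8 genes. Their build may differ from that of the table. Protein sequences were not used here, and 1 further marker of the line is not reported here.

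The 8 genes and the 7 lists were chosen with earlier results of these data known. Named genes were the 8, GLUD1, up to 3 passing genes of each list with the largest change, and the 5 nearest profiles to TXNIP and ARRDC4, taken among protein-coding genes; any other gene was named after its values were seen. Alternatives were a pseudocount of 0.1 TPM, no filter, a filter at an average of 5 TPM, quantile normalization, median-ratio rescaling, no variance trend, a block for the replicate number and leaving out each library. Groups of 2 against 2 allow no useful exact test of a single gene.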

Additional observations from a re-analysis of the deposited data

How the results depend on the processing

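The direction of TXNIP was the same under every alternative run, with log2 fold changes of 4.85 with 0.1 TPM added, 3.29 rescaled, 3.23 with quantile normalization and 3.65 to 4.04 with each library left out. With 0.1 TPM added, ARRDC1 was at 1.03, ARRDC3 at 1.30, ARRDC4 at 1.28 and MLXIPL at 1.81. Rescaled, ARRDC1 was at 0.25, ARRDC2 at -0.84, ARRDC3 at 0.40, ARRDC4 at 0.23, MLX at -0.41, MLXIP at -0.58 and MLXIPL at 0.50. With quantile normalization, ARRDC1 was at 0.43, ARRDC2 at -0.83, ARRDC3 at 0.25, MLX at -0.27 and MLXIP at -0.69. MLX and MLXIP thus changed sign with the scale; MLXIP also ranged from -0.04 to 0.16 with libraries left out.

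Of all genes, 2846 were higher and 3557 lower rescaled, 2938 and 2764 with quantile normalization, and 4676 were higher at a mean of at least 5 TPM, where fewer genes are tested. The counts per list moved as follows. Rescaled, 6 targets of MondoA and ChREBP, 7 MAX network genes, 4 of the NEDD4 family and 0 arrestin-fold genes were called (limma, 0 also at an unadjusted p under 0.05). With quantile normalization, 3 of the NEDD4 family and 0 arrestin-fold genes were called. At a mean of at least 5 TPM, 1 MAX network gene and 4 of the NEDD4 family were called, and with no filter 2 arrestin-fold genes. With libraries left out, calls ranged from 2 to 4 for glucose transporters and hexokinases, 5 to 8 for the NEDD4 family and 1 to 5 for arrestin-fold genes. The cause of these shifts was not tested.

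GLUD1 ranged from -0.37 to 0.15 with libraries left out, above 0 only without shGLUD1 replicate 1. HK2 was at -0.066 with quantile normalization. Rescaled and, separately, quantile-normalized, MUM1 was at -0.27 and -0.22, PARP6 at -0.34 and -0.18, MKKS at -0.31 and -0.22 and PARPBP at -0.19 and -0.30; NFE2L1 was at -0.33 rescaled. Over named genes that are not among the 8, 294 alternatives kept direction and side of the threshold, 32 lost the call, 9 gained one and 11 changed sign.

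Replicate numbers are shared between the groups, but nothing in the labels makes them pairs, and same-numbered libraries did not deviate together (correlation over genes 0.0393). With the replicate number as a block, 8456 genes were called, against 8078. TPM hide the depth, so low genes such as ARRDC4 and MLXIPL carry an unknown counting error, as does TXNIP in shNT. The size of every TXNIP ratio to or within shNT rests on those low values. Its ratio of means was 31.98 on TPM and 18.55 rescaled.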
